A study of Mus musculus with 12 samples.

Results

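The genes described here are 32 genes of the p53 pathway, which are p53 itself (Trp53), its regulators and a set of its known targets. They were taken as a named list and found by symbol among the 51826 genes of the count files, and all 32 were found. The list is one of names, without a threshold on any value, and it was drawn up with earlier results of these data known. p53 is a transcription factor that is kept low by the ubiquitin ligase Mdm2 and its partner Mdm4, and that accumulates after DNA damage, prolonged mitosis or faulty ribosome assembly. It then switches on genes for cell cycle arrest, DNA repair, apoptosis and its own restraint, Mdm2 among them. In B cells this response removes damaged cells, and lymphomas often lose it.

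Messenger RNA levels were read from their 3′ ends by sequencing RNA from cleared polysome lysates. The cells were a mouse B cell lymphoma line, 19DN, a subline of 19PP from which the GFP and hCD2 reporters had been removed. 19PP arose in a Rag2-/- γC-/- host, which lacks its own lymphocytes, given bone marrow with Cγ1-Cre and the Myc/P110*flSTOP alleles, so that every group carried Myc and an active PI3K subunit switched on by a Cre of germinal centre B cells. The cells had RPL12, a protein of the large ribosomal subunit, as wild type (WT) or with serine 38 changed to alanine (S38A) or aspartate (S38D), and each line was taken as asynchronous culture or as mitotic cells, with 2 libraries in each of the 6 groups. Mitotic cells were held for 8 h in 100 ng/mL nocodazole, a microtubule poison, and then kept 10 min without it, and cells of all groups were collected in cycloheximide, a blocker of translation elongation, at 100 µg/mL. How the RPL12 lines were made, and whether each is 1 clone, is not given in the sources used here, so line and clone cannot be told apart. State and drug treatment cannot be told apart either, and that the asynchronous cells had no nocodazole is taken from their titles. Whether the share of RNA that enters a cleared lysate differs between the states was not tested.

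Gene reads per library ranged from 3432875 to 6587997. All 8 B cell markers had reads, with a summed level of 1289 to 3082 CPM (CPM, read counts scaled by TMM to a common library size). Of 7 T and NK cell markers 5 had 0 reads and the sum stayed at or under 0.906 CPM, and 6 myeloid markers summed to 1.13 to 5.99 CPM with 2 at 0. Stromal, epithelial and endothelial markers summed to 15.8 to 111 CPM and erythroid markers to 251 to 1271 CPM, with 2 of 7 and 1 of 4 at 0, and both sums were highest in S38A asynchronous cells. Their part in the results was not tested. Nothing states that the 2 libraries of a group came from separate cultures, so the p-values take in the spread among these libraries alone, and that spread may be technical. Replicates lay far apart in S38D asynchronous cells, where 7 of the 25 measured members differed over 2-fold between the libraries (6 of them lower in replicate 1), against 11.4% of all genes. WT mitotic replicates came next, with 2 members and 7.10% of all genes over 2-fold apart, and 27.7% of genes with enough reads outside the range of counting error, against 45.3% in S38D asynchronous cells and 13.6% to 21.2% in the other 4 groups. In those 4 groups 0 to 2 members were over 2-fold apart. In a bulk sample, fewer cells expressing a gene and less RNA per cell cannot be told apart.

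Of the 32 genes, 25 had enough reads to be tested and 7 did not. Eda2r, a receptor of the TNF receptor family, Perp, a membrane protein of desmosomes and apoptosis, Phlda3, an inhibitor of Akt, and Ephx1, an epoxide hydrolase, had 0 reads in all 12 libraries. Over those libraries a count of 0 allows up to 0.0466 CPM. Ak1, an adenylate kinase, had 1 read in all. Tnfrsf10b, the mouse TRAIL receptor, had 6 reads, in 3 WT libraries, and Dcxr, a dicarbonyl and xylulose reductase, had 16 reads, of which 12 were in S38A, 4 in WT and 0 in S38D. Floors cover counting error only.

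Matches to the p53 response element, the DNA sequence that p53 binds, were sought in the windows from 250 bases before to 50 bases after RefSeq gene starts (GRCm38.p6), which were at hand for 24 of the 32 members. The element was searched as 2 half-sites of 10 bases (3 purines, C, 2 of A or T, G, 3 pyrimidines), 0 to 13 bases apart, with at most 1 mismatch in all. A half-site read from the other strand is again a half-site, so both strands were covered. Such an element stood in 206 of 32851 windows (0.627%) and in those of 2 members, Cdkn1a and Ccng1. The 250 bases before both starts are shown because they are the members with such a match, with the element in capitals, for Cdkn1a at chr17:29090729-29090978 (plus strand) and for Ccng1 at chr11:40755287-40755536 (minus strand).
Cdkn1a: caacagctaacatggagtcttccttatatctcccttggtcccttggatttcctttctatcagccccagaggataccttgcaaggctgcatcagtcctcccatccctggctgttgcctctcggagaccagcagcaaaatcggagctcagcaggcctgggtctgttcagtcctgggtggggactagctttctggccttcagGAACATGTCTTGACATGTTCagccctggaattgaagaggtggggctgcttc
Ccng1: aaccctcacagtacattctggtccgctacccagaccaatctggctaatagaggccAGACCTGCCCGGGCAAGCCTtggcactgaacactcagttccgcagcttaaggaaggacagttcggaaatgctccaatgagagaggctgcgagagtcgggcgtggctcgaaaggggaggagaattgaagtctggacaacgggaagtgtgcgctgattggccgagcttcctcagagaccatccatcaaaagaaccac
The Cdkn1a element lay 51 to 32 bases before the start and that of Ccng1 195 to 176 bases before it, both with adjoining half-sites and 1 mismatch. An overlapping Cdkn1a match had 12 bases between its half-sites and no mismatch. A match describes the letters in these windows and says nothing of binding in these cells.

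The first question was how the pathway's RNA differed between mitotic and asynchronous cells over the 3 lines. Of the 25 measured members 4 rose and 7 fell (edgeR quasi-likelihood F tests, adjusted p under 0.05 by Benjamini-Hochberg over all genes), a share of 44% beside 42.1% of all 10477 genes tested. Their median log2 change was -0.10, against -0.02 over all genes. The members that rose were Plk2, Cdkn1a, Aen and Triap1, and those that fell were Trp53inp1, Rrm2b, Zmat3, Ccng1, Psrc1, Ddb2 and Mdm2. Libraries of both states did not overlap for 4 members (Triap1 above, and Trp53inp1, Rrm2b and Ccng1 below), beside 10.6% of all genes.

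**Figure D1:**
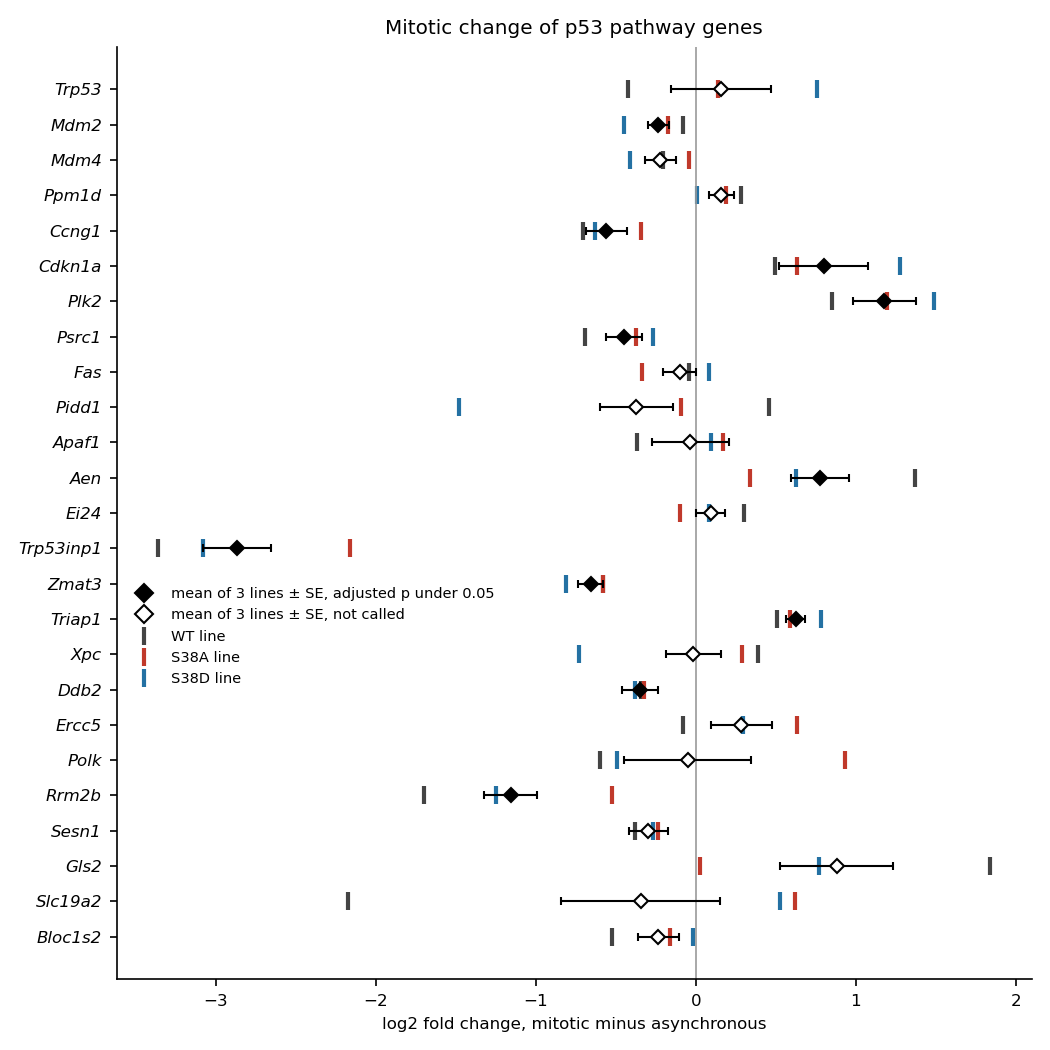
Log2 fold change, mitotic minus asynchronous, of the 25 measured members as the mean over the 3 lines (± SE) and in each line, with genes in order of their roles. Filled diamonds are means that passed the test, and upright ticks are single lines. Trp53inp1 lay farthest to the left in every line, at -3.36 in WT, -2.16 in S38A and -3.08 in S38D.

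Trp53 RNA stood at 46.5 and 49.0 CPM in WT, 35.8 and 22.9 in S38A and 14.3 and 39.4 in S38D asynchronous libraries. In mitotic libraries it stood at 24.4 and 47.2, 23.9 and 41.0, and 44.3 and 46.0 CPM. Replicates of 4 of the 6 groups lay over 10 CPM apart and the states overlapped, and the fitted change was 0.16 (log2, SE 0.314, 95% interval -0.51 to 0.82, edgeR adjusted p = 0.725), or -0.03 when scaled to the spike-in RNA. Without S38D asynchronous replicate 1 it was -0.04, and without WT mitotic replicate 2 it was -0.03.

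Mdm2, the ligase that degrades p53 and is induced by it, stood at 174 and 167 CPM in WT, 168 and 182 in S38A and 216 and 177 in S38D asynchronous libraries. In mitotic libraries it stood at 171 and 153, 158 and 152, and 143 and 144 CPM. WT mitotic replicate 1 lay among the asynchronous values and the other 5 mitotic libraries lay below all of them, and the log2 change was -0.23 (SE 0.0678, edgeR adjusted p = 0.0109). Ccng1, the cyclin G1 target that recruits a phosphatase to Mdm2 and carries the promoter element shown above, fell from a range of 14.0 to 20.5 CPM to one of 9.65 to 13.5 CPM, by 0.56 in log2 units (SE 0.13, adjusted p = 0.00248). Mdm4, the Mdm2 partner, and Ppm1d, the phosphatase Wip1 that removes activating phosphates from p53, did not pass the test in this comparison.

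The 3 cell cycle members all passed. Cdkn1a encodes the CDK inhibitor p21, the classic arrest target with the response element shown above. It was weakly expressed, at 5.67 and 5.10 CPM in WT, 2.99 and 1.21 in S38A and 0.796 and 2.12 in S38D asynchronous libraries. In mitotic libraries it stood at 7.18 and 8.12, 4.34 and 2.30, and 4.53 and 2.54 CPM. In the WT line, and in S38D, mitotic libraries were above both asynchronous ones, and in S38A they overlapped. The mean log2 change was 0.80 (SE 0.278, edgeR adjusted p = 0.029). This call was lost without any 1 of WT asynchronous replicate 1 or 2, S38A asynchronous replicate 2, S38D asynchronous replicate 1, WT mitotic replicate 2, S38A mitotic replicate 1 or S38D mitotic replicate 1 (adjusted p from 0.0517 to 0.123), with scaling to the spike-ins (adjusted p = 0.0989), with DESeq2 (0.11), and without replicate 1 of both S38D asynchronous and WT mitotic (0.0558).

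Plk2, a polo-like kinase of centriole duplication, stood between 19.3 and 55.1 CPM in asynchronous and between 50.6 and 130 CPM in mitotic libraries, a rise of 1.18 (log2, SE 0.197, edgeR adjusted p = 0.0019). The ranges overlapped only between WT mitotic replicate 1 and S38A asynchronous replicate 1. Psrc1, which encodes a microtubule-binding protein of the spindle, had 16.6 to 28.2 CPM in asynchronous and 15.9 to 20.6 CPM in mitotic libraries and fell by 0.45 (SE 0.113, adjusted p = 0.00466).

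**Figure D2:**
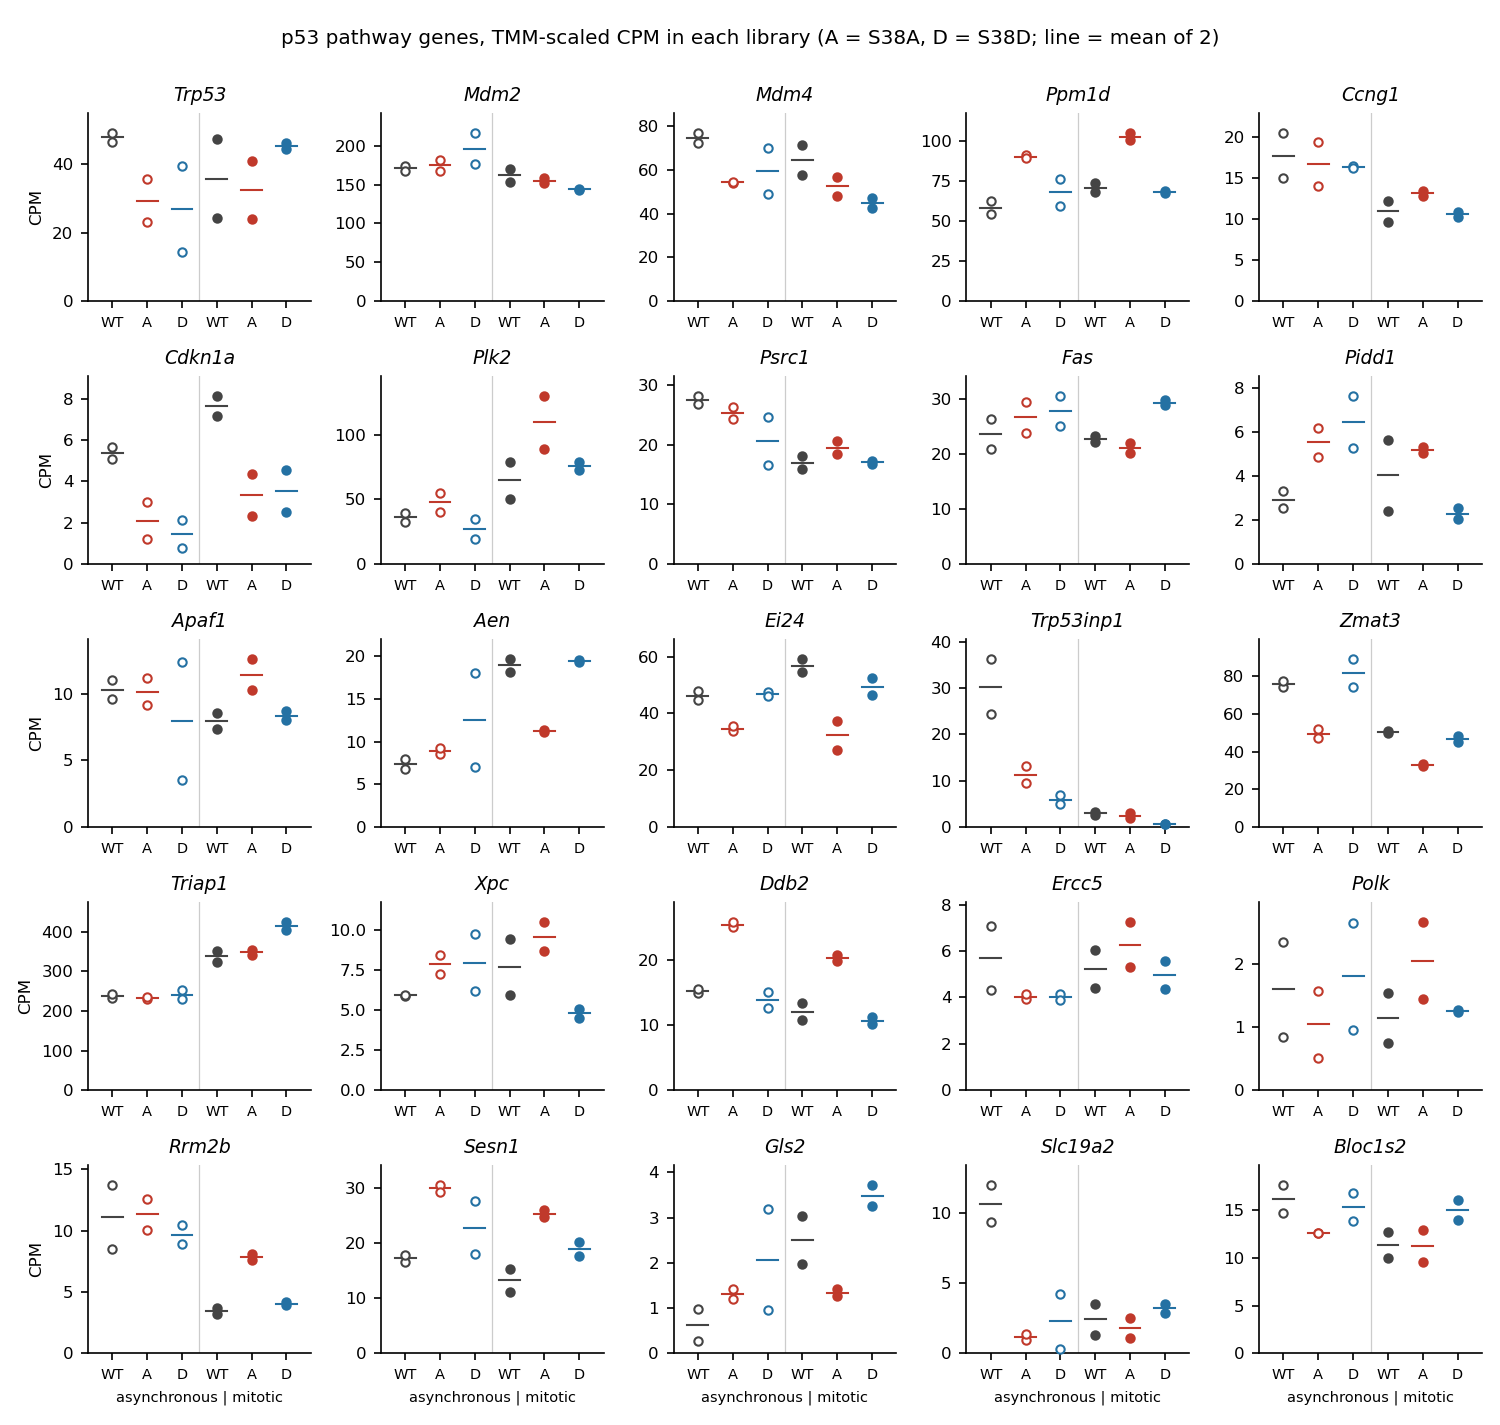
CPM of the 25 measured members in each of the 12 libraries (open marks asynchronous, filled marks mitotic, lines the mean of the 2 libraries of a group), each panel with its own axis from 0. Trp53inp1 was at or under 3.29 CPM in all 6 mitotic libraries and at or above 4.93 CPM in all 6 asynchronous ones.

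Among the apoptosis genes the largest change was that of Trp53inp1, a p53 target whose protein acts in p53 activation and autophagy. It stood at 36.2 and 24.4 CPM in WT, 13.1 and 9.48 in S38A and 4.93 and 6.89 in S38D asynchronous libraries. In mitotic libraries it stood at 2.64 and 3.29, 3.07 and 1.95, and 0.618 and 0.725 CPM, the last 2 values being 3 and 4 reads. Every mitotic library was under every asynchronous one, and the RNA was 7.3-fold lower (log2 -2.87, SE 0.214, edgeR adjusted p = 4.43e-08). Zmat3, an RNA-binding zinc finger protein, ranged from 47.2 to 89.0 CPM in asynchronous and from 32.6 to 51.2 CPM in mitotic libraries and fell by 0.66 (SE 0.0775, adjusted p = 5.26e-06). Within each line its mitotic libraries were under the asynchronous ones.

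Triap1, a small mitochondrial protein that restrains apoptosis, went the other way. It had 234 and 242 CPM in WT, 229 and 235 in S38A and 230 and 252 in S38D asynchronous libraries, and 353 and 323, 341 and 355, and 424 and 404 CPM in mitotic ones. Asynchronous lines lay within 25 CPM of each other, mitotic libraries were all higher, and S38D was highest among them. The log2 change was 0.62 (SE 0.0588, edgeR adjusted p = 5.43e-07). Aen, an exonuclease that trims DNA in apoptosis, rose by 0.78 (SE 0.182, adjusted p = 0.00328), with 6.84 to 18.0 CPM in asynchronous and 11.2 to 19.6 CPM in mitotic libraries. Its 18.0 CPM came from S38D asynchronous replicate 1, and the other 5 asynchronous libraries were at or under 9.31 CPM. The death receptor Fas, the PIDDosome scaffold Pidd1, the apoptosome core Apaf1 and Ei24, a membrane protein of the endoplasmic reticulum, did not pass in the mean over lines.

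Of the 5 DNA repair and nucleotide genes 2 fell. Rrm2b, the p53-induced subunit of ribonucleotide reductase, had 13.7 and 8.50 CPM in WT, 10.1 and 12.6 in S38A and 8.91 and 10.4 in S38D asynchronous libraries. In mitotic libraries it had 3.21 and 3.73, 8.14 and 7.62, and 3.91 and 4.17 CPM. The mitotic S38A libraries were thus just under the lowest asynchronous ones, those of the other lines well under them, and the mean log2 change was -1.16 (SE 0.163, edgeR adjusted p = 3.25e-05). Ddb2, which recognises ultraviolet lesions in DNA, had 12.7 to 25.9 CPM in asynchronous and 10.1 to 20.9 CPM in mitotic libraries, and fell by 0.35 (SE 0.11, adjusted p = 0.0178). That call was lost without WT mitotic replicate 1, S38A mitotic replicate 1 or S38D mitotic replicate 2 (adjusted p from 0.0503 to 0.0606), and with DESeq2 (0.138). The repair factors Xpc and Ercc5, the lesion polymerase Polk and the 4 measured metabolism, stress and transport genes (Sesn1, Gls2, Slc19a2 and Bloc1s2) did not pass.

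Within single lines, 7 members passed in WT (2 rose, 5 fell, 28% beside 26.0% of all genes), 3 in S38A (1 rose, 2 fell, 12% beside 14.8%) and 7 in S38D (2 rose, 5 fell, 28% beside 26.4%). Trp53inp1 (-3.36 in WT, -2.16 in S38A, -3.08 in S38D), Zmat3 (-0.58, -0.58 and -0.81) and Triap1 (0.50, 0.59 and 0.78) passed in all 3 lines in the same direction. Triap1 in WT was at 0.06 (adjusted p = 0.793) when scaled to the spike-ins. Zmat3 in S38A lost its call without S38A asynchronous replicate 1 or without S38A mitotic replicate 1 or 2 (edgeR adjusted p from 0.0549 to 0.0847). Rrm2b passed in WT (-1.70, adjusted p = 0.00085) and S38D (-1.25, adjusted p = 0.00444), Aen, Psrc1 and Ccng1 in WT (1.37, -0.70 and -0.70), and Plk2, Pidd1 and Mdm2 in S38D (1.49, -1.48 and -0.45). In WT, Aen lost its call without asynchronous or mitotic replicate 1, Psrc1 without these or asynchronous replicate 2, and Ccng1 without asynchronous replicate 1 or any of the mitotic WT and S38A libraries (adjusted p from 0.0525 to 0.339 over these). DESeq2 did not call Psrc1 (0.0819) or Ccng1 (0.157), and Ccng1 also missed the test when only the groups compared were fitted (0.0613), as did Mdm2 in S38D (0.136). In S38D, Mdm2 lost it without either mitotic library, and Plk2 and Pidd1 without either mitotic library or asynchronous replicate 1 (0.0561 to 0.093). The WT count fell without WT asynchronous replicate 1 or WT mitotic replicate 1. The S38D count fell without either S38D mitotic library and rose without S38D asynchronous replicate 2. The share of all genes called in these fits is not given here.

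Whether these changes differed between lines was tested directly. No measured member passed in the difference of the mitotic change, S38A minus WT or S38D minus WT, with edgeR, where 0.993% and 0.401% of all genes passed. In each of the 2 tests 4 members had an unadjusted p under 0.05, and DESeq2 called 0 in both. The difference for Trp53 was 0.56 (95% interval -1.07 to 2.20) for S38A and 1.18 (-0.45 to 2.81) for S38D, and that for Cdkn1a was 0.14 (-1.20 to 1.48) and 0.78 (-0.65 to 2.21). Differences of over 2-fold therefore lay within these intervals. Members did pass for S38D minus WT without S38D asynchronous replicate 2, and for S38A minus WT without either S38D asynchronous library. The share of all genes called in those fits is not given here, so these calls are not read as particular to the members.

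The second question was how the S38A and S38D lines differed from WT. All of these comparisons within a state share the WT libraries. In asynchronous cells, S38A differed from WT in 6 of the 25 members, 3 higher and 3 lower (24% beside 21.2% of all genes, median log2 -0.04 beside -0.02). S38D differed in 2, both lower (8% beside 8.99% called in all and 4.12% called lower, median -0.09 beside -0.0037). Relative to the spike-ins the median of all genes moved by -0.45 and -0.38 (log2) in these comparisons, since spike-in reads were 2.29% to 3.60% of gene reads over the 12 libraries and fewest in asynchronous WT. On that scale the calls were 9 lower and 0 higher for S38A, and 4 lower and 0 higher for S38D. The share of all genes called on that scale is not given here. As the median of all genes moved down, these splits are not particular to the members. Directions below that depend on the scaling are given with both values.

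**Figure D3:**
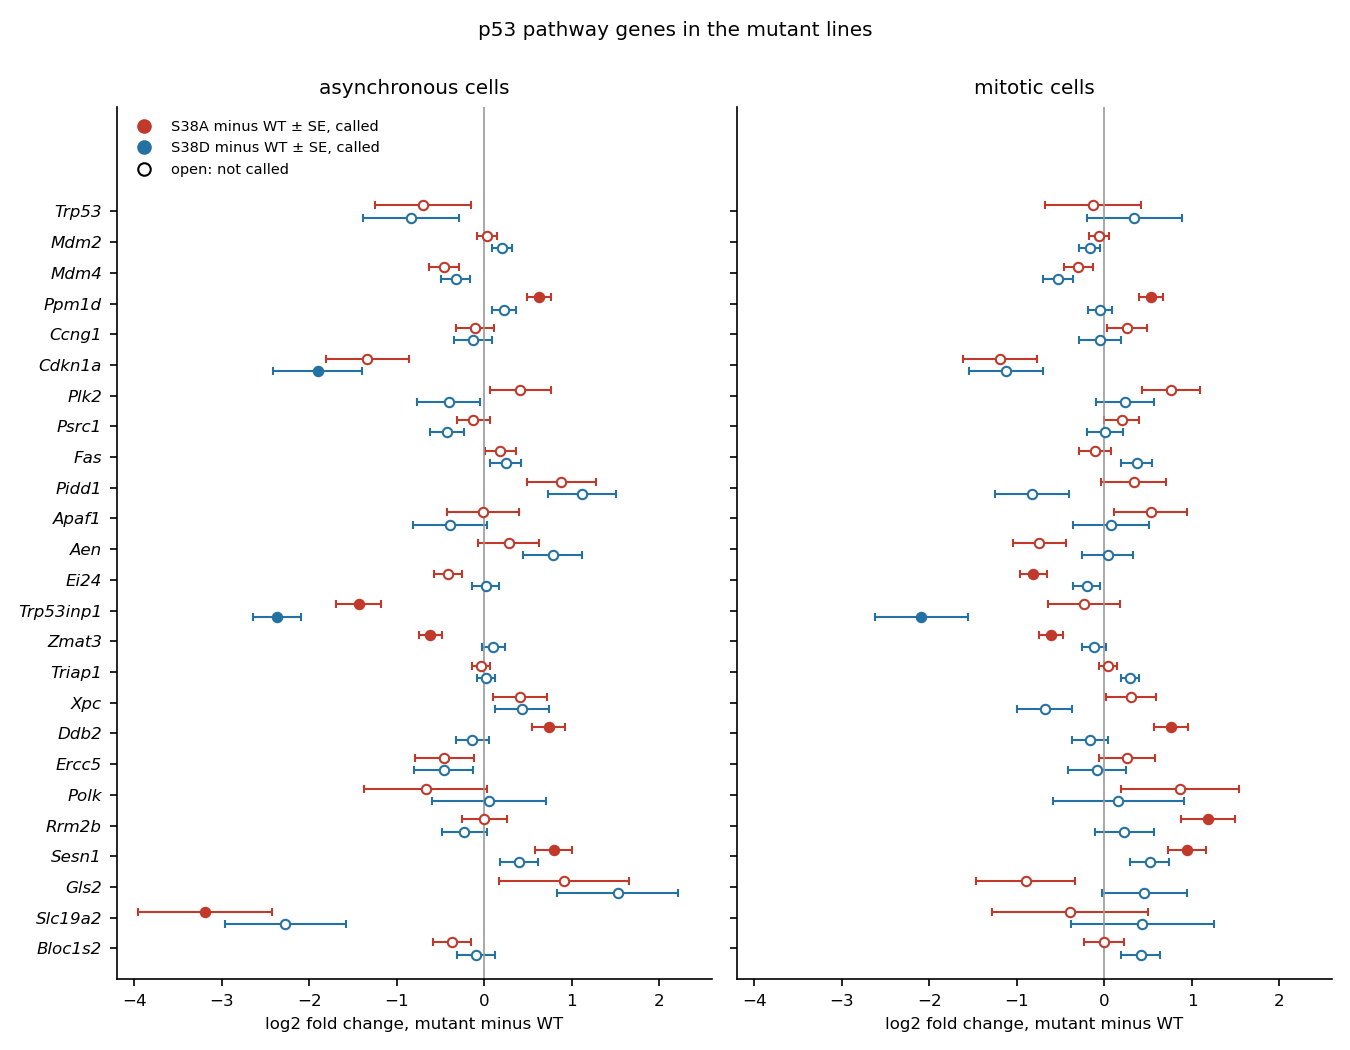
Log2 fold change (± SE) of the 25 measured members, S38A minus WT and S38D minus WT, in asynchronous cells (left) and mitotic cells (right). Filled marks passed the test. Trp53inp1 was lower in asynchronous cells of both lines, at -1.43 in S38A and -2.37 in S38D, while the marks of Mdm2 lay between -0.17 and 0.20 in all 4 comparisons.

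Trp53 itself was at -0.70 in S38A (SE 0.544, edgeR adjusted p = 0.41), and S38D at -0.84 (SE 0.549, adjusted p = 0.399), relative to WT in asynchronous cells. Both mutant lines lay below both WT libraries, and neither difference passed. Fitting only the groups compared called Trp53 lower in S38A (adjusted p = 0.00306), and no alternative called it in S38D. Mdm2 was at 0.03 in S38A (adjusted p = 0.86), which became -0.42 (adjusted p = 0.0309) when scaled to the spike-ins, and at 0.20 in S38D (adjusted p = 0.301), which became -0.19 on the spike-in scale and 0.38 (adjusted p = 0.0108) without S38D asynchronous replicate 2. Ppm1d was higher in S38A, with 91.2 and 89.5 CPM against 54.6 and 62.4 CPM in WT (log2 0.63, SE 0.137, adjusted p = 0.00401). On the spike-in scale it was at 0.17 (adjusted p = 0.421), and without WT asynchronous replicate 1 its adjusted p was 0.0762.

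Cdkn1a was lower in S38D asynchronous cells (log2 -1.90, SE 0.51, edgeR adjusted p = 0.0288) and at -1.34 in S38A (SE 0.475, adjusted p = 0.0562). No asynchronous library of either mutant line reached the lower WT value of 5.10 CPM. These are small counts, with 29 and 18 reads in WT, 19 and 7 in S38A and 5 and 12 in S38D. The S38D call was lost without WT asynchronous replicate 1 or 2 or S38D asynchronous replicate 1 (adjusted p from 0.102 to 0.213), without replicate 1 of both S38D asynchronous and WT mitotic (0.135), and when only the groups compared were fitted (0.164). The S38A value passed with the replicate number as a block (adjusted p = 0.047), with spike-in scaling (-1.79, 0.0155), without a filter (0.0173) and when only the groups compared were fitted (0.00955). It also passed without S38A asynchronous replicate 1 (-2.10, 0.0449), without S38D asynchronous replicate 1 (0.0266) or 2 (0.0257), and without replicate 1 of both S38D asynchronous and WT mitotic (0.0156).

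Trp53inp1 was lower in both mutant lines. The CPM given above fell into order in asynchronous cells, with both WT libraries above both S38A libraries and these above both S38D libraries. The log2 difference was -1.43 for S38A (SE 0.257, edgeR adjusted p = 0.00103) and -2.37 for S38D (SE 0.277, adjusted p = 5.2e-05), or 5.17-fold lower in the latter. Both calls held without each of the 12 libraries in turn. The difference between the mutant lines, -0.94, did not pass. Zmat3 was lower in S38A, with 51.8 and 47.2 CPM against 74.3 and 77.4 in WT, while S38D had 89.0 and 74.1 CPM. The difference was -0.61 from WT (SE 0.133, adjusted p = 0.00402), and S38D minus S38A was 0.72 (SE 0.132, adjusted p = 0.00312). Without S38A asynchronous replicate 2 these had adjusted p = 0.0758 and 0.0692, and the latter had 0.118 when only the groups compared were fitted.

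Ddb2 and Sesn1, a stress-induced inhibitor of mTORC1 signalling, were higher in S38A asynchronous cells. Ddb2 had 25.2 and 25.9 CPM in S38A, 15.1 and 15.6 in WT and 12.7 and 15.2 in S38D, so that S38A stood above both other lines. It differed by 0.74 from WT (SE 0.186, edgeR adjusted p = 0.0101) and by -0.87 for S38D minus S38A (SE 0.182, adjusted p = 0.00778). Sesn1 had 30.4 and 29.3 CPM in S38A and 16.6 and 17.9 in WT (log2 0.80, SE 0.213, adjusted p = 0.0144), with S38D at 18.0 and 27.6 CPM between them. On the spike-in scale the S38A differences from WT were 0.29 for Ddb2 (adjusted p = 0.349) and 0.34 for Sesn1 (adjusted p = 0.335). Ddb2 lost its call against WT without WT asynchronous replicate 1 or S38A asynchronous replicate 2 (adjusted p from 0.0549 to 0.0924) and against S38D without either S38A asynchronous library (0.058 to 0.0686). Sesn1 lost it without any 1 of the 4 libraries compared (0.0518 to 0.122). DESeq2 called neither against WT (0.0814 and 0.0522), and for S38D minus S38A Ddb2 missed the test with DESeq2 (0.0659) and when only the groups compared were fitted (0.126).

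Slc19a2, the high-affinity thiamine transporter and a p53 target, had 11.9 and 9.35 CPM in WT asynchronous libraries and 0.945 and 1.38 in S38A, which are 6 and 8 reads. S38D had 0.318 and 4.24 CPM, and the mitotic libraries of all lines had 1.08 to 3.51 CPM. Asynchronous WT was thus above every other group. S38A was lower by a log2 difference of -3.19 (SE 0.767, edgeR adjusted p = 0.0174), a call lost without any 1 of the 4 libraries compared (adjusted p from 0.0576 to 0.132), and S38D was at -2.27 (adjusted p = 0.076). The count of members called for S38A minus WT fell without WT asynchronous replicate 1 or S38A asynchronous replicate 2. For S38D minus WT the count fell without either WT asynchronous library and rose without S38D asynchronous replicate 2. S38D minus S38A had 2 calls (Zmat3 and Ddb2, 8% beside 7.22% of all genes). These became fewer without either S38A asynchronous library and more without either S38D asynchronous library. The share of all genes called with a library left out is not given here.

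In mitotic cells S38A differed from WT in 6 members, 4 higher and 2 lower (24% beside 17.0% of all genes). Ppm1d (0.53), Ddb2 (0.76) and Sesn1 (0.94) were higher and Zmat3 (-0.61) lower, as in asynchronous cells, with edgeR adjusted p from 0.0056 to 0.0121. These 4 were the members called in the same direction in both states. Rrm2b was higher in mitotic S38A (log2 1.18, SE 0.306, adjusted p = 0.014), where it had 8.14 and 7.62 CPM against 3.21 and 3.73 in WT. Ei24 was lower, with 37.4 and 27.3 CPM against 54.6 and 59.0 in WT (log2 -0.81, SE 0.157, adjusted p = 0.00203), and the libraries of both lines were apart in both genes. Each of these calls was lost without S38A mitotic replicate 2, which left a count of 0. The count was 2 without WT mitotic replicate 1, where Ppm1d, Ddb2, Rrm2b and Sesn1 lost their calls, and 3 without S38A mitotic replicate 1, where Ppm1d, Ddb2 and Rrm2b did. Ppm1d was also lost without WT mitotic replicate 2. Over these omissions the adjusted p of the lost calls ran from 0.0532 to 0.149. Ddb2 and Rrm2b also missed the test with DESeq2 (0.113 and 0.103) and without replicate 1 of both S38D asynchronous and WT mitotic (0.0725 and 0.063).

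S38D differed from WT in 1 member in mitotic cells (4% beside 4.56% of all genes called and 3.41% called lower). This was Trp53inp1, lower by a log2 difference of -2.09 (SE 0.536, edgeR adjusted p = 0.0342), with 3 and 4 reads in S38D against 14 and 15 in WT. The call was lost without any 1 of these 4 libraries (adjusted p from 0.101 to 0.214), with DESeq2 (0.0951) and when only the groups compared were fitted (0.0606). The count of members rose without either S38D asynchronous library, and the share of all genes called in those fits is not given here. Trp53 was at 0.34 (95% interval -0.80 to 1.49), Mdm2 at -0.17 (-0.42 to 0.08) and Cdkn1a at -1.12 (-2.02 to -0.22, adjusted p = 0.162) in S38D, and at -0.13 (-1.29 to 1.02), -0.06 (-0.31 to 0.19) and -1.20 (-2.09 to -0.30, adjusted p = 0.0634) in S38A.

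The mutant lines were also set against each other in mitosis, where 7 members differed, 2 higher and 5 lower in S38D than in S38A (28% beside 17.7% of all genes). Ei24 (0.61) and Zmat3 (0.49) were higher, and Ppm1d (-0.59), Trp53inp1 (-1.86), Ddb2 (-0.93), Rrm2b (-0.96) and Xpc, the sensor that starts nucleotide excision repair (-0.99), were lower, with edgeR adjusted p from 0.00351 to 0.0351. For Ppm1d, Ddb2, Rrm2b, Zmat3 and Ei24 the S38D libraries were nearer to WT than those of S38A were. These genes were also called for mitotic S38A minus WT, and both comparisons share the S38A libraries. Their choice thus favours this order, which is no separate result. Trp53inp1 went the other way, at 0.618 and 0.725 CPM in S38D, 3.07 and 1.95 in S38A and 2.64 and 3.29 in WT. Xpc stood at 4.53 and 5.07 CPM in S38D, 8.68 and 10.5 in S38A and 9.45 and 5.92 in WT, so the WT libraries reached into the S38A range. Zmat3, Xpc and Rrm2b lost their calls without any 1 of the 4 libraries compared, Trp53inp1 without S38A mitotic replicate 1 or either S38D mitotic library, and Ppm1d, Ei24 and Ddb2 without S38D mitotic replicate 2 (adjusted p from 0.0557 to 0.198 over all of them). Ppm1d also lost it without S38A mitotic replicate 1, and Ei24 without S38A mitotic replicate 2. DESeq2 did not call Zmat3 (0.0724), Trp53inp1 (0.0763), Xpc (0.198) or Rrm2b (0.212). The count fell without any 1 of the 4 libraries compared and rose without either S38D asynchronous library. The share of all genes called in these fits is not given here.

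Across all 12 comparisons, 17 of the 25 measured members passed at least 1 test and 8 passed none, namely Trp53, Mdm4, Fas, Apaf1, Ercc5, Polk, Gls2 (a glutaminase) and Bloc1s2 (a subunit of lysosome positioning complexes). The share of all genes passing at least 1 test is not given here. Since 42.1% of them passed in the mean mitotic comparison alone, the count of 17 is no trait of the pathway. Mdm4 ranged from 42.6 to 76.8 CPM over the 12 libraries, Fas from 20.2 to 30.6, Bloc1s2 from 9.58 to 17.6, Apaf1 from 3.50 to 12.6 and Ercc5 from 3.89 to 7.23 CPM, while Polk and Gls2 were at or under 3.71 CPM in every library. Of the 52 calls, 21 held without each library in turn. Among the measured members, Ddb2 (1065 reads over all libraries), Gls2 (122 reads) and Ei24 (2808 reads) overlap a gene of the opposite strand in their last 500 bases, namely Acp2 (183 reads), Spryd4 (399 reads) and Gm26787 (78 reads). The strand setting of the counting is not given in the sources used here, so reads of these pairs may not be separated.

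**Figure D4:**
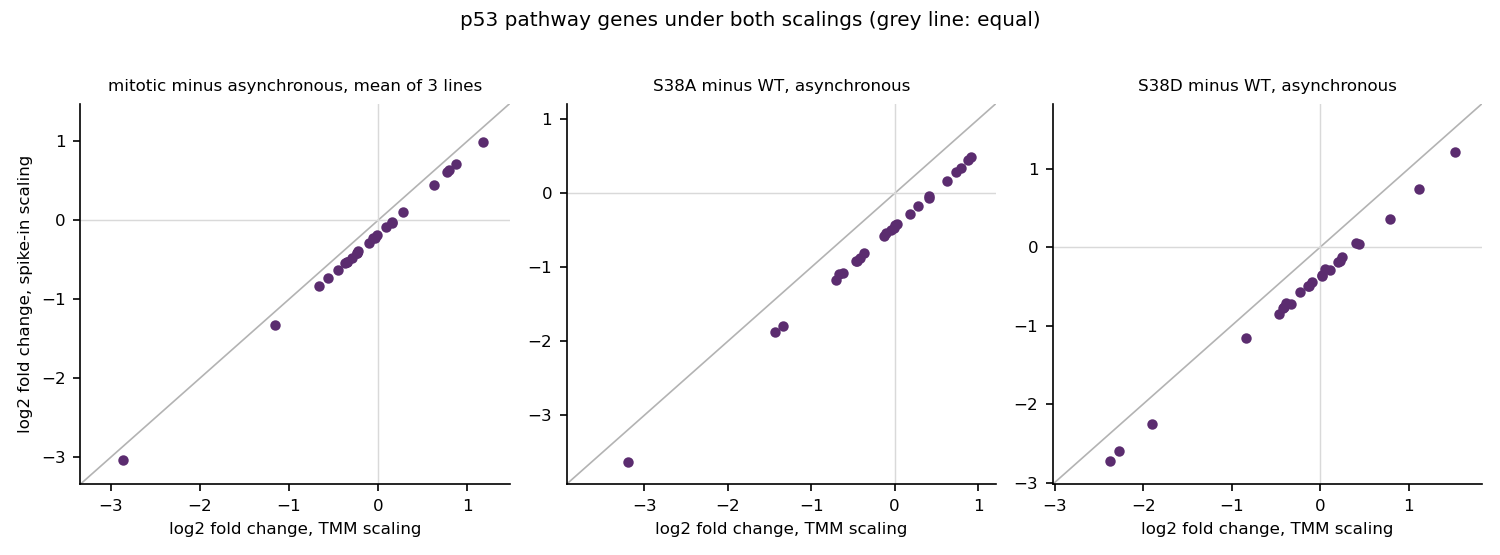
Log2 fold change of the 25 measured members with TMM scaling (horizontal axis) against scaling to the spike-in RNA (vertical axis), for the mean mitotic comparison, S38A minus WT and S38D minus WT in asynchronous cells. Points lie below the diagonal by about the shift of all genes, -0.18, -0.45 and -0.38, so that members near 0 change sign and Trp53inp1 does not.

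Scaling to the spike-ins also moved the split in mitotic cells further toward lower calls. The mean over lines then had 3 higher and 10 lower calls, WT 1 higher and 11 lower, and S38D 1 higher and 7 lower, with the median of all genes moved by -0.18, -0.43 and -0.11. The share of all genes called on that scale is not given here, so these splits are not read as particular to the members. Plk2, Aen and Triap1 stayed higher in the mean (0.99, 0.62 and 0.44) and Trp53inp1, Rrm2b and Zmat3 stayed lower (-3.04, -1.33 and -0.83), all with an edgeR adjusted p under 0.05. The signs of Trp53, Ppm1d and Ei24, none of which passed, changed. Plk2 in S38D then missed the test (adjusted p = 0.0547). For S38D minus S38A in mitosis the split became 0 higher and 5 lower, with Ei24 and Zmat3 at an adjusted p of 0.0696 and 0.0929, and in asynchronous cells Ddb2 missed it as well (0.0746), as it did for mitotic S38A minus WT (0.0527).

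Outside the 32 genes, a list of 48 other p53 pathway genes had 41 measured members. In the mean mitotic comparison 7 rose and 10 fell, 41.5% beside 42.1% of all genes. Gadd45a, a growth arrest and repair gene, fell by 1.18 and Shisa5, an endoplasmic reticulum protein that promotes apoptosis, fell by 0.80. Hipk2, a kinase that phosphorylates p53, and Atr, the checkpoint kinase, rose by 1.02 and 0.90. Casp8, the death receptor caspase, and Kat2b, an acetyltransferase of p53, were lower by 0.67 and 0.87, and Kat2b lost its call without S38A asynchronous replicate 1 (edgeR adjusted p = 0.056). DESeq2 called neither Casp8 (0.0578) nor Kat2b (0.0932).

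Against WT in asynchronous cells, S38A had 3 of the 41 higher and 9 lower, and S38D 2 higher and 5 lower (29.3% and 17.1%, beside 21.2% and 8.99% of all genes). Shisa5 stood at 132 and 138 CPM in WT, 66.5 and 58.6 in S38A and 65.1 and 54.4 in S38D, log2 differences of -1.11 and -1.18. Gadd45a stood at 29.7 and 24.1 CPM in WT, 8.19 and 5.86 in S38A and 4.78 and 12.2 in S38D, differences of -1.94 and -1.68. The WT libraries were above those of both mutant lines in both genes. The Gadd45a call in S38D was lost without WT asynchronous replicate 1 (edgeR adjusted p = 0.111) and when only the groups compared were fitted (0.238).

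Bbc3, which encodes the apoptosis activator Puma, was lower in S38D (108 and 103 CPM in WT, 47.9 and 50.4 in S38D, log2 -1.11), as were Sesn2 (-1.06), a relative of Sesn1, and Btg2, an antiproliferative target (-0.93). These 3 calls held without each library in turn, and those of Sesn2 and Btg2 were lost when only the groups compared were fitted. Siva1, an apoptosis-inducing protein, was higher in S38A, at 332 and 338 CPM against 162 and 192 in WT (0.92). In mitotic cells S38A had 4 of the 41 higher and 5 lower (22.0% beside 17.0% of all genes). S38D had 1 higher and 4 lower (12.2% beside 4.56% of all genes called and 3.41% called lower). Shisa5 was at -1.45 in S38A and -1.55 in S38D, and Sesn2 at -0.96 and -1.90. Bbc3 was called lower in both mutant lines. It had 53.5 and 51.1 CPM in mitotic S38A and 60.8 and 57.3 in S38D, against 109 and 98.5 in WT. Sesn2 in mitotic S38A lost its call without S38A mitotic replicate 1 (edgeR adjusted p = 0.0639). Npm1, a nucleolar chaperone that binds Mdm2 and Arf, was the 1 gene of this list whose mitotic change differed between lines. The difference was 0.89 for S38A minus WT (log2, SE 0.192, edgeR adjusted p = 0.0366). That is 1 of 41 genes (2.44%), beside 0.993% of all genes. Npm1 had 386 and 306 CPM in asynchronous and 205 and 217 in mitotic WT, and 255 and 248 and then 298 and 271 CPM in S38A. The call was lost without any 1 of 10 libraries, all but the S38D asynchronous ones (adjusted p from 0.0571 to 0.274). Npm1 has near-identical pseudogene copies, and the sources used here do not say how multiply matching reads were handled.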

How the data were processed

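The deposited files hold read counts, 1 file per library, as whole numbers for 51826 genes and the ERCC spike-ins, which the authors did not normalize, as the values show. RNA came from cleared polysome lysates, and QuantSeq 3′ forward libraries were made with spike-ins, per the labels' protocols. The tools were bcl2fastq 2.16.0.10, cutadapt 1.12 and STAR 2.5.3a on mm10, per the submitters' processing notes. Which program counted reads, with which annotation and strand option, and how it handled multiply matching reads, is not given in the sources used here.

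Symbols came from GENCODE M21 (GRCm38), which matched 51633 identifiers (99.63%). The filterByExpr filter (by group, minimum count 10) passed 10477 genes. After TMM scaling, edgeR 4.0.16 under R 4.3.3 fitted 1 mean per group to all 12 libraries, with 6 residual degrees of freedom, and gave robust quasi-likelihood F tests. Benjamini-Hochberg adjustment ran over all tested genes in each of 12 comparisons, and an adjusted p under 0.05 was a call. SEs come from the F statistic, and 95% intervals from these with the median degrees of freedom over all genes. The tests used each gene's own degrees of freedom, so the intervals of genes with fewer can be too narrow. The code was tested on simulated data.

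Every called member could be named, Trp53, Mdm2 and Cdkn1a always, and of the other pathway genes at most the 6 with the largest called change per comparison. Members, lists and this rule were chosen with earlier results of these data known. Alternatives were DESeq2 1.42.0, its size factors in edgeR, spike-in scaling, no filter, a mean of at least 10 CPM, the replicate number as a block, only the groups compared, and each library left out in turn. Leaving out replicate 1 of S38D asynchronous and WT mitotic together was added after seeing the data. Depth was 3432875 to 6587997 gene reads (median 5548100). A floor is 3 reads and takes in counting error alone.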

Additional observations from a re-analysis of the deposited data

Results flagged for a closer look

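Npm1, which is not among the 32 genes, differed between lines in its mitotic change, by a log2 difference of 0.895 for S38A minus WT (SE 0.192, edgeR adjusted p = 0.0366). Its level fell in WT, from 386 and 306 to 205 and 217 CPM, and was 255 and 248 CPM in asynchronous and 298 and 271 CPM in mitotic S38A. It was 1 call among the 41 other pathway genes measured (2.44%), in a test that 0.993% of all genes passed. The count is thus not read as a result about the pathway. Leaving out any 1 of the 10 libraries outside S38D asynchronous lost the call (adjusted p from 0.0571 to 0.274), while both S38D asynchronous libraries could be left out in turn without losing it.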

How the results depend on the processing

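Counts of members called moved with the processing as follows. The share of all genes called under each alternative is not given beside them, so they show stability only. Spike-in scaling gave 12 for mitotic WT, 4 for S38D minus WT and 1 for S38D minus S38A in asynchronous cells, and 1 for the difference in mitotic change, S38A minus WT. DESeq2 gave 1 for both asynchronous S38D comparisons, 0 for S38D minus WT and 3 for S38D minus S38A in mitosis. Without a filter there were 5 for S38D minus WT in asynchronous and 2 in mitotic cells, and 1 (S38A) and 2 (S38D) in the differences of the mitotic change. With a mean of at least 10 CPM there were 4 for mitotic S38D, and 0 for S38D minus WT in both states. Fitting only the groups compared gave 11 for S38A minus WT, 1 for S38D minus WT and 0 for S38D minus S38A in asynchronous cells, 0 for S38D minus WT and 13 for S38D minus S38A in mitosis, and 2 for the S38A difference in mitotic change. Without replicate 1 of S38D asynchronous and WT mitotic these were 10, 5 and 4 in asynchronous cells, 2 and 13 in mitosis, and 1.

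Leaving out 1 library at a time gave 9 to 13 calls for the mean mitotic comparison, 4 to 10 for WT, 2 to 4 for S38A and 4 to 13 for S38D. In asynchronous cells it gave 2 to 8 for S38A minus WT, 1 to 9 for S38D minus WT and 0 to 7 for S38D minus S38A, and in mitotic cells 0 to 8, 0 to 3 and 0 to 12. The differences of the mitotic change had 0 to 2 (S38A) and 0 to 7 (S38D). Among called members, and Trp53, Mdm2 and Cdkn1a in the mean mitotic comparison and both asynchronous comparisons with WT, the signs that turned were those of Trp53 in the mean mitotic comparison (-0.033 with spike-ins, and -0.038 to 0.46 with 1 library left out, below 0 without S38D asynchronous replicate 1 or WT mitotic replicate 2) and of Mdm2 with spike-ins (-0.42 in S38A, -0.19 in S38D, against WT in asynchronous cells). Other members that passed neither test changed sign with spike-ins too, such as Ppm1d (0.16 to -0.016) and Ei24 (0.09 to -0.087) in the mean mitotic comparison. In each case but those that drop libraries or genes, the cause was not tested. With the replicate number as a block the mean mitotic count was 11 and Cdkn1a for S38A minus WT in asynchronous cells passed (adjusted p = 0.047), and no other named call changed. The numbers showed no consistent pairing: of 15 correlations of replicate differences between groups 3 were above 0.1 and 3 below -0.1, from -0.399 to 0.786. Several groups still shared a direction, as 1 axis held 69.6% of the within-group variance. S38D asynchronous replicate 1 (-24.3), WT mitotic replicate 1 (-15.1), S38A mitotic replicate 1 (-7.12) and S38A asynchronous replicate 2 (-4.44) lay at its low end. In each of these Trp53 was lower than in the other replicate. The cause was not tested.

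Of 116 results on named genes, 43 kept their side of the threshold and direction under every one of the 20 alternatives, and of 2267 alternative values 1977 did, 275 lost the call, 10 gained one and 5 turned. With 2 libraries a group, a library left out leaves a lone one that is assumed to vary like the others. Members under about 5 CPM, Cdkn1a, Slc19a2, Polk, Gls2 and mitotic Trp53inp1 among them, rest on few reads per library.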
